A study of Mus musculus with 12 samples.

Results

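The genes of cholesterol and fatty acid synthesis were followed in the livers of hemophilia B mice treated with an antisense oligonucleotide (ASO) against Upf3b, a factor of nonsense-mediated mRNA decay. The 37 genes form a list of SREBP pathway genes found by symbol, with 18 genes of the sterol branch, 14 of the fatty acid branch and 5 regulators, out of 31114 genes in the files. All 37 passed the filter on low values. The hFIX-R29X mice lack mouse coagulation factor IX. Their human factor IX comes from a minigene that holds the R29X nonsense mutation and is driven by a promoter active in hepatocytes. All 12 livers came from this strain. The animals were 8 to 14 weeks old and received 6 doses, 1 every 5 days, of DPBS (the vehicle, spelled DBPS in a label), of 15 mg/kg Control-GalNAc-ASO (a scrambled sequence) or of 10 mg/kg Upf3b-GalNAc-ASO. The livers were taken 48 h after the last dose. Each group held 4 animals, replicates 1 and 2 female and replicates 3 and 4 male, and the groups are called DPBS, Control-ASO and Upf3b-ASO. GalNAc is a sugar ligand that directs an oligonucleotide to the asialoglycoprotein receptor of hepatocytes. The 2 ASOs differed in dose as well as in sequence, and the effects of sequence and dose cannot be told apart in their comparison.

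Sterol regulatory element-binding proteins (SREBPs) are transcription factors made as membrane-bound precursors in the endoplasmic reticulum. When membrane sterol is low, the escort protein SCAP carries them to the Golgi, where proteases release the active fragment, and INSIG proteins hold SCAP back when sterol is high. SREBP-2 acts mainly on genes of cholesterol synthesis, and SREBP-1c, which insulin induces in the liver, mainly on genes of fatty acid and triglyceride synthesis.

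The sequence listed by the study for the Upf3b-ASO is shown because the animals received its GalNAc-conjugated form, which is assumed here to have the same bases, and the site it pairs with is given on the line after it, both written 5′ to 3′ with no part singled out.
Upf3b-ASO: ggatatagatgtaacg
Site in Upf3b: cgttacatctatatcc
The site lies in exon 10 of 10 of the transcript Upf3b-201, in its 3′ UTR, on the minus strand at chrX:37091973-37091988 (GRCm38). In the annotated transcripts of the 37 genes, the longest run of bases that could pair with the ASO without a break was 6 to 10 of its 16 bases, with 10 reached in Fasn and in Stard4.

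Stretches before the gene start are shown for 3 sterol genes that were lower in males and for Fasn so that their promoter letters can be compared. Sequences are from RefSeq (GRCm38.p6), 250 bases before the start, and capitals mark matches to any of 4 motifs on either strand: TCACNCCAC (a sterol regulatory element, the site SREBP binds), CCAAT (bound by NF-Y), GGGCGG (bound by Sp1) and CACGTG (an E-box). On the other strand CCAAT reads ATTGG and GGGCGG reads CCGCCC. In Fasn 2 of the CCAAT matches overlap each other.
Hmgcs1, chr13:119690101-119690350, plus strand: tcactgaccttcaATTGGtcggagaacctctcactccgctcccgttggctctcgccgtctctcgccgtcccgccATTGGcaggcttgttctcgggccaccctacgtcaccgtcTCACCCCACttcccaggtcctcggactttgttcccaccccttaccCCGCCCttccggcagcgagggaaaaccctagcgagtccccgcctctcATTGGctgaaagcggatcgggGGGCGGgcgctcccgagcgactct
Mvd, chr8:122443423-122443672, minus strand: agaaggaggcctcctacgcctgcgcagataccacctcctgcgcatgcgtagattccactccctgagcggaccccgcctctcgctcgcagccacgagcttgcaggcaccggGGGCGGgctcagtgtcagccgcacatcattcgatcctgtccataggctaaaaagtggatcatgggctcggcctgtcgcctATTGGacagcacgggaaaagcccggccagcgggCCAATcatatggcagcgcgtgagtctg
Nsdhl, chrX:72918271-72918520, plus strand: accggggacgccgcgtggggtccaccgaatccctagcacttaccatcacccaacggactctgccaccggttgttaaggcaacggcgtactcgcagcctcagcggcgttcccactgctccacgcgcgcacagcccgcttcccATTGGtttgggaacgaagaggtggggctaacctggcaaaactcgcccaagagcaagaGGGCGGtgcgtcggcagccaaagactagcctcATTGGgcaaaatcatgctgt
Fasn, chr11:120824548-120824797, minus strand: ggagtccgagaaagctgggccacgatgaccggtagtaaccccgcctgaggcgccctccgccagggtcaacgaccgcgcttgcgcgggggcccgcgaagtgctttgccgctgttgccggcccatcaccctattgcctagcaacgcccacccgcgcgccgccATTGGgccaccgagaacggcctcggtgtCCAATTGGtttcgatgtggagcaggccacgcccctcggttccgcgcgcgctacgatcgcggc
Over the whole 300-base windows, which run 50 bases past the start, 30 of the 37 genes had an entry. Fdps, Sqle, Stard4, Dgat2, Fdft1, Fads1 and Scd1 had none. CCAAT was found in 25 of the 30 (83.3%) and in 41.1% of 27025 genes, and GGGCGG in 23 (76.7%) and in 38.2%. The 27025 genes are all those with an entry, and the shares among genes expressed in these livers were not taken. A gene with several annotated starts had several windows, and a match in any of them counted for the gene. In the sterol branch each of these 2 motifs was in 13 of the 14 genes with an entry, and in the fatty acid branch CCAAT was in 8 and GGGCGG in 5 of 11. TCACNCCAC was in 1 of the 30, Hmgcs1 (3.33%), and in 1.44% of genes, and CACGTG was in 6 of the 30 and in 8.09% of genes. A match is a description of letters and not a site shown to be used.

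Estimated counts per liver summed to 18500135 to 20387682 for DPBS, 17642996 to 18764106 for Control-ASO and 13277892 to 17054313 for Upf3b-ASO. Each treated liver held fewer than each control, and the number of reads sequenced per liver was not among the values used. The 37 genes had between 76 and 255250 estimated counts in a liver, and 36 of them had 100 or more in each liver. Levels are given as CPM, counts scaled to a library of 1000000. Upf3b itself had 9.38 to 13.4 CPM in the DPBS livers, 7.93 to 12 CPM in the Control-ASO livers and 0.651 to 1.58 CPM in the treated ones, a log2 fold change of -3.30 ± 0.27 (SE, adjusted p = 7.4e-05, edgeR) against Control-ASO. Control-ASO replicate 3, a male, stood apart from the other livers, with a quality weight of 0.0516 where the others had 0.757 to 1.99. It held 3166 CPM of the fasting and stress gene Igfbp1 where the others had 25.3 to 152 CPM. The calls among the 37 genes are given with and without it, as are called values that changed by 1.5 times or more. Control-ASO replicate 1 held 3010 CPM over 6 erythroid markers, against 211 to 549 CPM in the other 11 livers. The hepatocyte markers, with Alb among them, summed to 41580 to 89081 CPM in the 12 livers. None of the 29 tested markers of 7 liver and blood cell types was called in the comparison of Upf3b-ASO with Control-ASO or with DPBS by edgeR, with 5 and 5 of them at an unadjusted p under 0.05 and 4 and 2 called by DESeq2. Between the sexes 6 of the 29 were called, 2 higher and 4 lower in males (9 by DESeq2). In whole liver, fewer cells of a type and less RNA per cell cannot be told apart.

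Whether Upf3b depletion went with a change in lipid synthesis genes was asked first against the scrambled ASO. Of the 37 genes, 5 were lower in Upf3b-ASO and 0 were higher (edgeR quasi-likelihood test, adjusted p under 0.05), or 13.5%, where 10.3% of the 8846 genes tested were called and 5.95% were called lower. Against DPBS, 4 were lower and 0 higher, or 10.8%, where 8.93% of all genes were called and 5.36% were called lower. The 2 comparisons share the treated livers. DESeq2 called 7 of the 37 in each comparison, all lower, where it called 17.9% and 14.4% of all genes. It added Srebf1 and Fads1 against Control-ASO, and Hsd17b7, Insig1 and Scd1 against DPBS. Thrsp, Dgat2 and Stard4 were called in both, Scd1 and Tm7sf2 against Control-ASO, and Acaca against DPBS. The median log2 fold change of the 37 genes was -0.05 against Control-ASO and -0.27 against DPBS, beside -0.02 and 0.00 over all genes tested. By branch, edgeR called 3 of the 14 fatty acid genes in either comparison, 2 and 1 of the 18 sterol genes and 0 of the 5 regulators. These counts are small, and the split changed with the setting. With sample quality weights, 2867 of the 8846 genes were called against Control-ASO. Among them were Ebp, Hsd17b7, Msmo1, Nsdhl, Sqle, Stard4 and Tm7sf2 of the sterol branch. The fatty acid genes called were Acaca, Dgat2, Fads1, Scd1 and Thrsp, and the regulators Insig1, Insig2 and Srebf1.

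**Figure D1:**
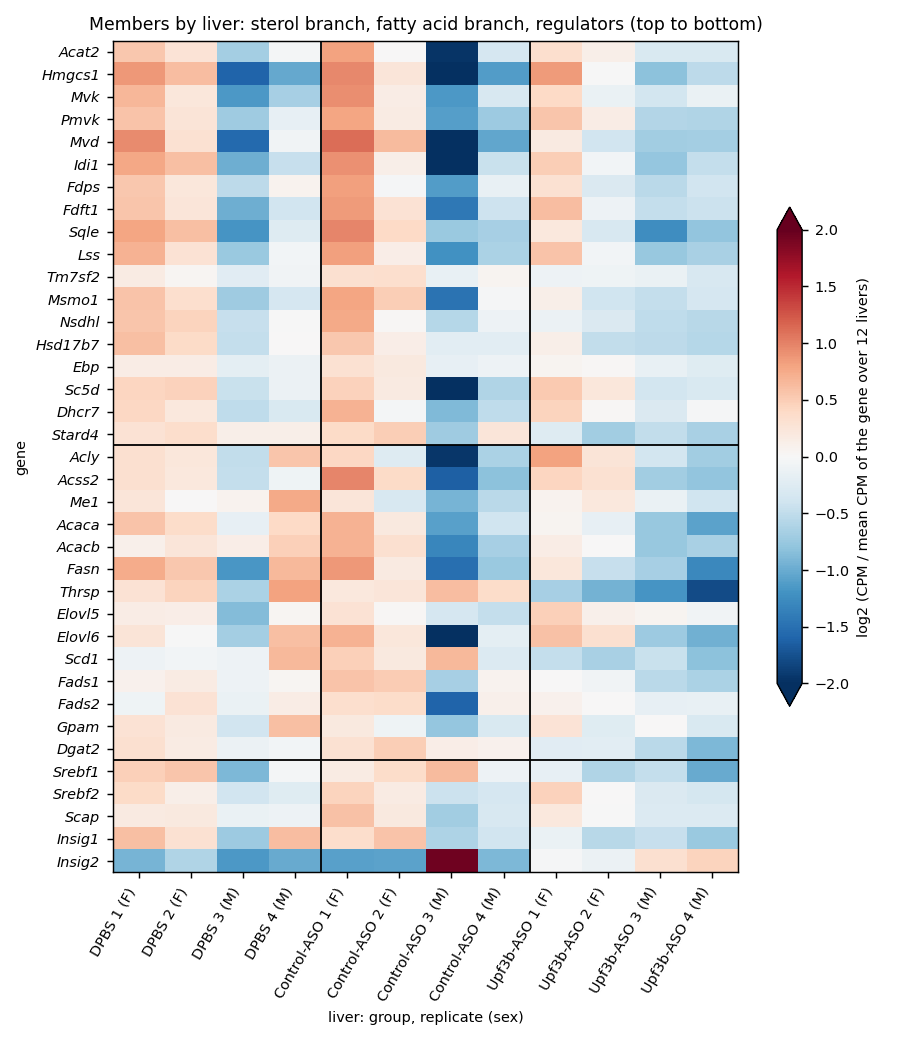
Level of each of the 37 genes (rows) in each of the 12 livers (columns, with group, replicate and sex), as the log2 of CPM over the mean of that gene; colours are cut at -2 and 2. The upper block of sterol genes is red in most female columns and blue in most male columns of each group, Thrsp and Scd1 are blue in all 4 Upf3b-ASO livers, and Control-ASO replicate 3 is the darkest column.

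Thrsp encodes the thyroid hormone responsive spot 14 protein, a nuclear protein of lipogenic tissues that promotes fatty acid synthesis. It had 664, 737, 350 and 949 CPM after DPBS, 627, 644, 837 and 700 CPM in Control-ASO, and 342, 282, 239 and 157 CPM in Upf3b-ASO, in the order of the replicates. All 4 treated livers lay under all 8 control livers. The log2 fold change was -1.49 ± 0.30 (SE, adjusted p = 0.011, edgeR) against Control-ASO, a 2.80-fold lower level, and -1.42 ± 0.30 (adjusted p = 0.013, edgeR) against DPBS. It was called in 13 of the 14 other settings of the first comparison and in each of the 8 fits without 1 liver. Groups that did not overlap in this direction were found for 4 of the 37 genes against Control-ASO and for 4 against DPBS, where 7.69% and 12% of all genes tested showed this.

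Dgat2, diacylglycerol acyltransferase 2, catalyses the last step of triglyceride synthesis. Its levels were 687, 615, 507 and 527 CPM after DPBS, 681, 775, 602 and 583 CPM in Control-ASO, and 471, 476, 379 and 296 CPM in Upf3b-ASO. The treated livers again lay under all 8 controls. It fell by 0.72 ± 0.10 on the log2 scale (SE, adjusted p = 0.0015, edgeR) against Control-ASO, to a 1.64-fold lower level, and by 0.54 ± 0.10 (adjusted p = 0.0076, edgeR) against DPBS.

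Scd1, the stearoyl-CoA desaturase that makes oleate and palmitoleate, was the most abundant of the 37 transcripts per length, at 2295 ± 629 TPM (SD, n = 4) in DPBS. It stood at 8035, 8293, 8023 and 13524 CPM after DPBS, 11977, 9902, 13555 and 7099 CPM in Control-ASO, and 6193, 5482, 6288 and 4882 CPM in Upf3b-ASO. No treated liver reached the lowest control liver. The log2 fold change was -0.90 ± 0.23 (SE, adjusted p = 0.032, edgeR) against Control-ASO and -0.72 ± 0.23 (adjusted p = 0.078, edgeR) against DPBS. The call against Control-ASO was kept in 7 of 14 other settings and in 2 of 8 fits without 1 liver.

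Stard4, a soluble carrier that moves cholesterol between membranes, had 97.9, 103, 87.0 and 87.3 CPM after DPBS, 105, 113, 49.3 and 95.4 CPM in Control-ASO, and 67.1, 49.7, 57.3 and 51.0 CPM in Upf3b-ASO. Of the 8 control livers, Control-ASO replicate 3 alone overlapped the treated livers. The log2 fold change was -0.67 ± 0.19 (SE, adjusted p = 0.049, edgeR) against Control-ASO and -0.73 ± 0.19 (adjusted p = 0.036, edgeR) against DPBS. Without that liver the first value was -0.86 (adjusted p = 9.5e-05, edgeR). The calls were kept in 1 of 8 fits without 1 liver against Control-ASO and in 0 of 8 against DPBS, and with the replicate block the adjusted p was 0.082 and 0.063 (edgeR).

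Tm7sf2, a sterol reductase of the endoplasmic reticulum and nuclear envelope, had 143, 131, 109 and 120 CPM after DPBS, 159, 160, 114 and 132 CPM in Control-ASO and 118, 120, 116 and 101 CPM in Upf3b-ASO. The groups overlapped, and the difference from Control-ASO was small, -0.30 ± 0.09 on the log2 scale (SE, adjusted p = 0.049, edgeR). This call was kept in 2 of 8 fits without 1 liver. Acaca, acetyl-CoA carboxylase 1, makes the malonyl-CoA that fatty acid synthase consumes. It was at 523, 454, 314 and 465 CPM after DPBS, at 567, 400, 166 and 266 CPM in Control-ASO, and at 366, 315, 208 and 168 CPM in Upf3b-ASO. Its log2 fold change was -0.80 ± 0.22 (SE, adjusted p = 0.049, edgeR) against DPBS, and against Control-ASO, whose males were low as well, it was -0.37 ± 0.22 (adjusted p = 0.30, edgeR). The call against DPBS was kept in 1 of 8 fits without 1 liver, and without Control-ASO replicate 3 the value against Control-ASO was -0.53 (adjusted p = 0.05, edgeR, just under the threshold).

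**Figure D2:**
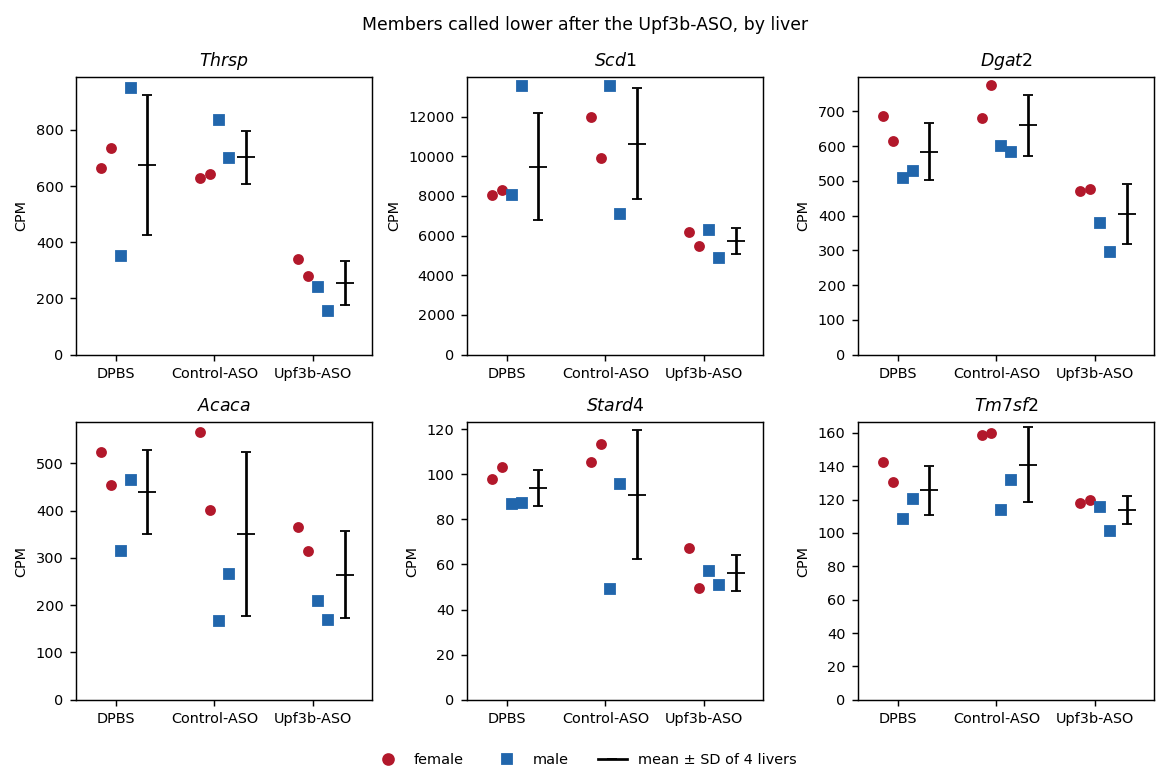
CPM of the 6 genes called lower after the Upf3b-ASO in either comparison, by liver, with females as red circles, males as blue squares, and the mean and SD of the 4 livers of a group in black. For Thrsp, Scd1 and Dgat2 no treated liver reaches a control liver, while Stard4 overlaps through 1 male control at 49.3 CPM.

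Other enzymes of the fatty acid branch were not called by edgeR in either comparison, and DESeq2 called Fads1 against Control-ASO (log2 fold change -0.46, adjusted p = 0.043). Fasn, fatty acid synthase, varied widely within groups, with 3529, 3046, 942 and 3300 CPM after DPBS, 3842, 2370, 739 and 1262 CPM in Control-ASO and 2471, 1525, 1322 and 859 CPM in Upf3b-ASO. Its log2 fold change was -0.28 ± 0.39 (SE, adjusted p = 0.67, edgeR) against Control-ASO and -0.85 ± 0.39 (adjusted p = 0.22, edgeR) against DPBS. Its SE of 0.39 compares with 0.23 for Scd1. Acly, Acss2 and Me1, which supply cytosolic acetyl-CoA and NADPH, had log2 fold changes of 0.52, 0.00 and 0.29 against Control-ASO and -0.22, -0.22 and -0.38 against DPBS. Elovl5 and Elovl6, which lengthen fatty acids, Fads1 and Fads2, which desaturate them, and Gpam, the first acyltransferase of glycerolipid synthesis, ranged from -0.46 (Fads1) to 0.27 (Elovl5) against Control-ASO and from -0.37 (Fads1) to 0.25 (Elovl5) against DPBS.

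Acacb, the acetyl-CoA carboxylase of the mitochondrial outer membrane whose malonyl-CoA restrains fatty acid oxidation, was not called as a gene (log2 fold change -0.15 ± 0.29 against Control-ASO, SE, adjusted p = 0.77, edgeR), yet 1 of its transcripts was. Acacb-202 (8788 bases, 53 exons) had 87.3, 80.4, 57.6 and 54.8 CPM after DPBS, 105, 103, 51.4 and 38.5 CPM in Control-ASO and 36.9, 32.1, 20.8 and 24.1 CPM in Upf3b-ASO. No treated liver reached a control liver. The log2 fold change was -1.31 ± 0.15 (SE, adjusted p = 0.0045 over 32673 transcripts, edgeR) against Control-ASO and -1.30 ± 0.15 (adjusted p = 0.0044, edgeR) against DPBS. Acacb-201 (8482 bases, 52 exons), which held most of the reads in DPBS and in Upf3b-ASO, had 108, 139, 142 and 196 CPM after DPBS, 183, 122, 16.2 and 75.5 CPM in Control-ASO and 164, 156, 92.4 and 93.2 CPM in Upf3b-ASO, a log2 fold change of 0.45 ± 0.49 (SE, adjusted p = 0.79, edgeR). Acacb-202 took 21.0 to 43.0% of the Acacb reads of DPBS livers, 32 to 71.0% of those of Control-ASO livers and 16.8 to 19.8% of those of treated livers. Salmon divides reads among transcripts that share exons, so that a transcript's count is less certain than that of its gene.

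Of the 180 annotated transcripts of the 37 genes, 155 passed the filter. Besides Acacb-202, Dgat2-201 and Thrsp-201 were called against Control-ASO, all 3 lower, where 1.0% of all transcripts tested were called. Against DPBS, Acacb-202 and Dgat2-201 were called, where 0.97% of transcripts were. Nonsense-mediated decay is annotated for 3 of the tested transcripts, and edgeR called 0 of them in either comparison. These were Acss2-205 at 5.02 to 49.3 CPM, Dhcr7-210 at 1.02 to 6.24 CPM, and Tm7sf2-208, which was at 0 in 8 of the 12 livers.

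The 5 regulators were not called by edgeR in either comparison, and DESeq2 called Srebf1 against Control-ASO (adjusted p = 0.015) and Insig1 against DPBS (adjusted p = 0.045). Srebf1, which encodes the SREBP-1 precursors, had 616, 645, 236 and 430 CPM after DPBS, 492, 567, 682 and 409 CPM in Control-ASO and 394, 291, 317 and 221 CPM in Upf3b-ASO. All 4 treated livers lay under the Control-ASO livers, and 3 of them lay above DPBS replicate 3. The log2 fold change was -0.84 ± 0.26 (SE, adjusted p = 0.067, edgeR) against Control-ASO and -0.62 ± 0.26 (adjusted p = 0.18, edgeR) against DPBS. Srebf2, which encodes SREBP-2, stood at 41.2, 34.3, 24.2 and 26.6 CPM after DPBS, 43.0, 35.3, 23.6 and 25.0 CPM in Control-ASO and 43.4, 31.7, 26.0 and 24.7 CPM in Upf3b-ASO. In each group both females were above both males, and the ranges of the 3 groups overlapped, with a log2 fold change of -0.01 ± 0.11 (SE, adjusted p = 0.99, edgeR) against DPBS. Scap had 192, 194, 155 and 158 CPM after DPBS, 254, 194, 105 and 136 CPM in Control-ASO and 197, 169, 140 and 141 CPM in Upf3b-ASO, with the same order of the sexes.

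INSIG1 and INSIG2 are the retention proteins. Insig1, itself a target of SREBP, was at 1187, 963, 470 and 1193 CPM after DPBS, at 990, 1161, 507 and 596 CPM in Control-ASO and at 708, 531, 567 and 467 CPM in Upf3b-ASO, with log2 fold changes of -0.45 ± 0.26 (SE, adjusted p = 0.28, edgeR) and -0.74 ± 0.26 (adjusted p = 0.12, edgeR). Insig2 was at 74.0, 92.6, 63.3 and 69.6 CPM after DPBS, at 66.4, 66.7, 544 and 75.0 CPM in Control-ASO and at 139, 129, 175 and 192 CPM in Upf3b-ASO. The treated livers were above all controls other than Control-ASO replicate 3, which was the highest of all 12. With that liver, the log2 fold change was -0.04 ± 0.59 (SE, adjusted p = 0.97, edgeR) against Control-ASO and 0.99 ± 0.58 (adjusted p = 0.35, edgeR) against DPBS, although no DPBS liver reached a treated one. Insig2 was the only one of the 37 genes higher in all treated livers than in all DPBS livers, where 10.4% of all genes tested were. Without Control-ASO replicate 3 it was 1.18 (adjusted p = 0.00047, edgeR) and 1.08 (adjusted p = 0.00033, edgeR).

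**Figure D3:**
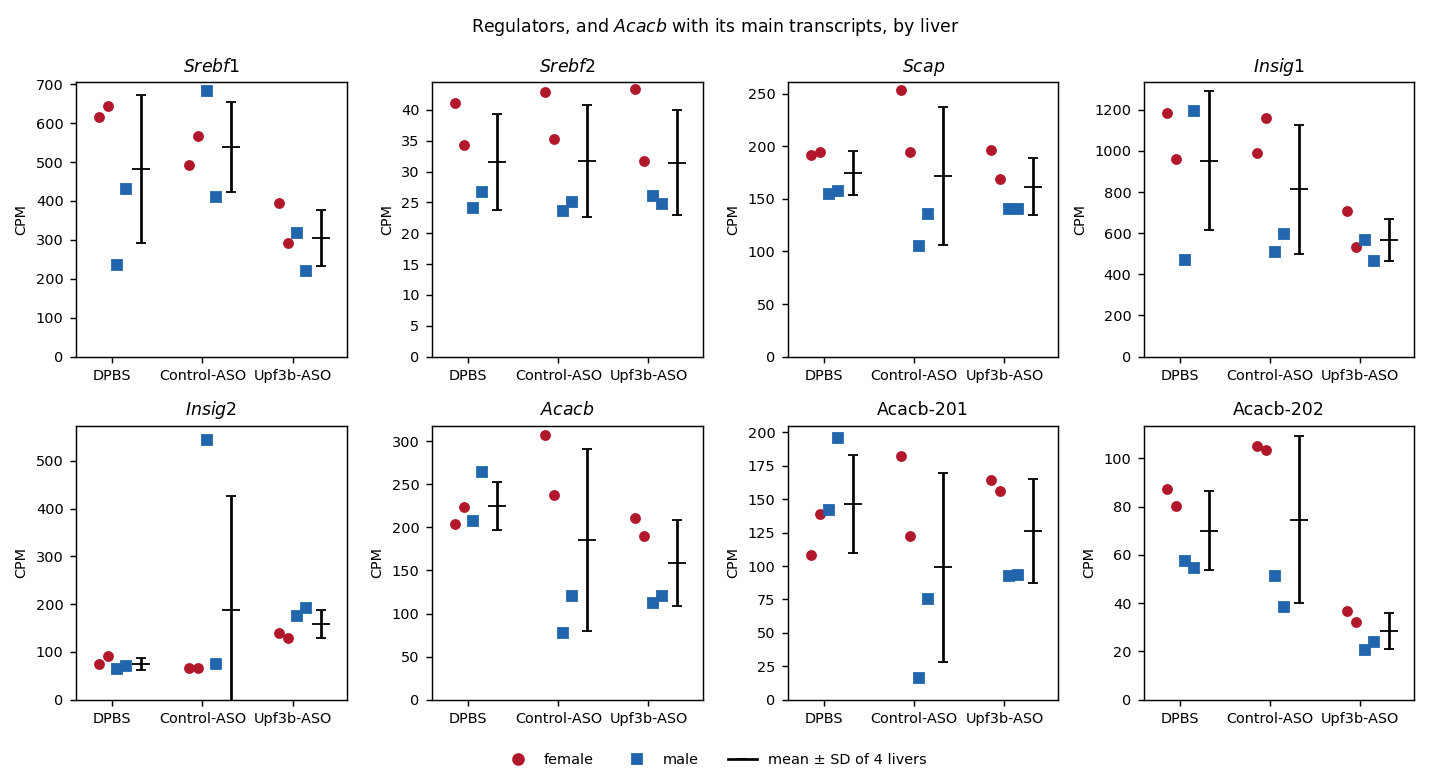
CPM of the 5 regulators, of Acacb and of its transcripts 201 and 202, by liver, with females as red circles, males as blue squares, and the mean and SD of 4 livers in black (the Insig2 bar of Control-ASO runs below the axis, which starts at 0). Insig2 is at 129 to 192 CPM in Upf3b-ASO against 63.3 to 92.6 CPM in the controls other than the single value of 544 CPM, and Acacb-202 is lower in all treated livers while Acacb-201 overlaps.

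Leaving out Control-ASO replicate 3 also changed the counts. Against Control-ASO, 10 of the 37 genes were then called, Insig2 higher and Acaca, Dgat2, Fads1, Msmo1, Nsdhl, Scd1, Stard4, Thrsp and Tm7sf2 lower, where 24.5% of all genes were called. Against DPBS, the spread estimate shared by all livers fell and 11 genes were called, Insig2 higher and Acaca, Dgat2, Fads1, Hsd17b7, Insig1, Nsdhl, Scd1, Srebf1, Stard4 and Thrsp lower, where 28.7% of all genes were called. With the replicate number as a block, 2 genes were called against Control-ASO (Dgat2 and Thrsp, where 7.9% of all genes were called) and 3 against DPBS (these and Hsd17b7, where 6.85% were).

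The Control-ASO itself left the 37 genes without a call. Against DPBS, edgeR called 0 of them, where 0.0113% of all genes were called. One of them, Me1, had an unadjusted p under 0.05 (log2 fold change -0.68 ± 0.24, SE, adjusted p = 0.64, edgeR), and DESeq2 called 0, where it called 0.486% of all genes. The median log2 fold change of Control-ASO against DPBS was -0.10 over the 37 genes, beside 0.01 over all genes tested. In the fatty acid branch it was -0.32, with 10 of 14 genes negative, beside -0.38 for Upf3b-ASO against DPBS. In the sterol branch it was -0.09.

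The sterol genes differed between females and males. Over the 3 groups, 20 of the 37 genes were lower in males and 0 were higher (edgeR, treatment in the model), or 54.1%, where 10.0% of all genes tested were called and 5.73% were called lower in males. The sterol branch held 14 of these among its 18 genes, the fatty acid branch 4 of 14 (Acaca, Acss2, Dgat2 and Fads1) and the regulators 2 of 5 (Srebf2 and Scap). The median log2 difference, male minus female, was -0.93 in the sterol branch, -0.48 in the fatty acid branch and -0.53 in the regulators, beside 0.01 over all genes tested. In 11 of the 37 genes, 8 of them sterol genes, all 6 males lay under all 6 females, which 3.17% of all genes tested showed. DESeq2 called 27 of the 37, where it called 15.4% of all genes. Among the cell type markers, Alb was at 65128 to 77739 CPM in females and 31041 to 55992 CPM in males, Dcn, Reln and Spp1 were also lower in males, and Tdo2 and Alas2 were higher. Their part in the sex difference was not tested. Without Control-ASO replicate 3, a male, 25 of the 37 genes were called lower in males, where 21.9% of all genes were called.

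The same order held within the groups. Both males lay under both females in 18 of the 18 sterol genes for DPBS, in 18 for Control-ASO and in 16 for Upf3b-ASO, where 27.7%, 23.9% and 29.4% of all genes tested did so. In the fatty acid branch this held for 4 of 14 genes for DPBS, 12 for Control-ASO and 12 for Upf3b-ASO. DPBS replicate 4, a male, had 3300 CPM of Fasn and 949 CPM of Thrsp, beside 942 and 350 CPM in the other DPBS male. No interaction of sex and treatment was called by edgeR among the 37 genes or among all 8846 (0.0%), of which 647 and 316 had an unadjusted p under 0.05 against Control-ASO and DPBS. Of the 37 genes, 1 of them had an unadjusted p under 0.05 against Control-ASO (Mvd) and 1 did against DPBS (Acacb). Other tools were not run on the interaction. With 2 animals of each sex in a group, the absence of a call does not show an equal sex difference. Against Control-ASO, the log2 fold change in males minus that in females was positive in every sterol gene, from 0.15 (Ebp) to 1.81 (Mvd). Against DPBS it ran from -0.14 (Pmvk) to 0.94 (Mvk). The female to male ratio of summed sterol CPM was 1.61 after Upf3b-ASO, 2.48 after Control-ASO (replicate 3 included) and 1.96 after DPBS. The sources used here give neither the hour of collection nor the feeding state of the animals, and whether these differed between the sexes was not tested.

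The first steps of the pathway, from acetyl-CoA to farnesyl diphosphate, held sex differences in Hmgcs1, Mvd, Idi1, Pmvk and Mvk. Hmgcs1, cytosolic HMG-CoA synthase, was at 1024, 869, 186 and 278 CPM after DPBS, at 1096, 665, 98.0 and 259 CPM in Control-ASO and at 1022, 560, 321 and 393 CPM in Upf3b-ASO, in each group with the 2 females first. The females held 560 to 1096 CPM with a median of 946 and the males 98.0 to 393 CPM with a median of 269. The log2 difference was -1.83 ± 0.30 (SE, adjusted p = 0.003, edgeR), a 3.55-fold lower level in males, and -1.63 ± 0.22 without Control-ASO replicate 3 (adjusted p = 0.00046, edgeR). Between treatments Hmgcs1 was not called, with 0.44 ± 0.36 (adjusted p = 0.44, edgeR) against Control-ASO. Mvd, which decarboxylates mevalonate diphosphate, and Idi1, which isomerises the product, had log2 differences of -1.43 ± 0.36 and -1.34 ± 0.34 (adjusted p = 0.031 and 0.03, edgeR). Without Control-ASO replicate 3 these were -1.18 and -1.10, and Sqle of the next steps was at -1.21. The kinases Pmvk and Mvk had differences of -1.07 ± 0.16 and -1.01 ± 0.23 (adjusted p = 0.0017 and 0.019, edgeR). Acat2, an acetoacetyl-CoA thiolase, and Fdps, the farnesyl diphosphate synthase, had -0.88 and -0.70 and were not called (adjusted p = 0.065 and 0.066, edgeR).

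The steps from farnesyl diphosphate to lanosterol followed. Sqle, squalene epoxidase, had 220, 193, 56.3 and 107 CPM after DPBS, 249, 167, 76.0 and 80.2 CPM in Control-ASO and 147, 102, 53.6 and 73.3 CPM in Upf3b-ASO. Only the DPBS male at 107 CPM exceeded the lowest female, at 102 CPM, and the log2 difference was -1.24 ± 0.18 (SE, adjusted p = 0.0014, edgeR). Fdft1, squalene synthase, had 264, 214, 91.3 and 138 CPM after DPBS, 324, 221, 66.7 and 135 CPM in Control-ASO and 275, 167, 130 and 133 CPM in Upf3b-ASO. Here no male reached a female, with -1.08 ± 0.22 (adjusted p = 0.0097, edgeR), while the treated group was not called, with 0.05 ± 0.26 (adjusted p = 0.93, edgeR) against DPBS. Lss, which closes the sterol rings, had a log2 difference between the sexes of -1.08 ± 0.19 (adjusted p = 0.0049, edgeR).

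Among the 7 enzymes that turn lanosterol into cholesterol, the differences between the sexes were smaller, from -0.25 ± 0.07 (Tm7sf2) to -0.97 ± 0.22 (Sc5d, a desaturase), and 6 of the 7 were called. Nsdhl and Hsd17b7, which act on the C4 position of the sterol, had -0.60 ± 0.15 and -0.56 ± 0.13, and Ebp, the sterol isomerase, had -0.31 ± 0.06 with no male at or above a female. Dhcr7, the last reductase, had -0.72 ± 0.16. Msmo1, the C4 methyl oxidase, had -0.83 ± 0.24 (adjusted p = 0.057, edgeR). Stard4, which carries sterol and makes none, had -0.30 ± 0.15 (adjusted p = 0.27, edgeR).

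Srebf2 was at 31.7 to 43.4 CPM in females with a median of 38.2 and at 23.6 to 26.6 CPM in males with a median of 24.9, a log2 difference of -0.61 ± 0.09 (SE, adjusted p = 0.0021, edgeR), and Scap had -0.53 ± 0.12 (adjusted p = 0.019, edgeR). Thrsp and Scd1 were not called between the sexes. Thrsp was at 282 to 737 CPM in females and 157 to 949 CPM in males, with a log2 difference of -0.16 ± 0.24 (SE, adjusted p = 0.72, edgeR), and Scd1 had 0.08 ± 0.19 (adjusted p = 0.82, edgeR), a value that changed sign in other settings.

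**Figure D4:**
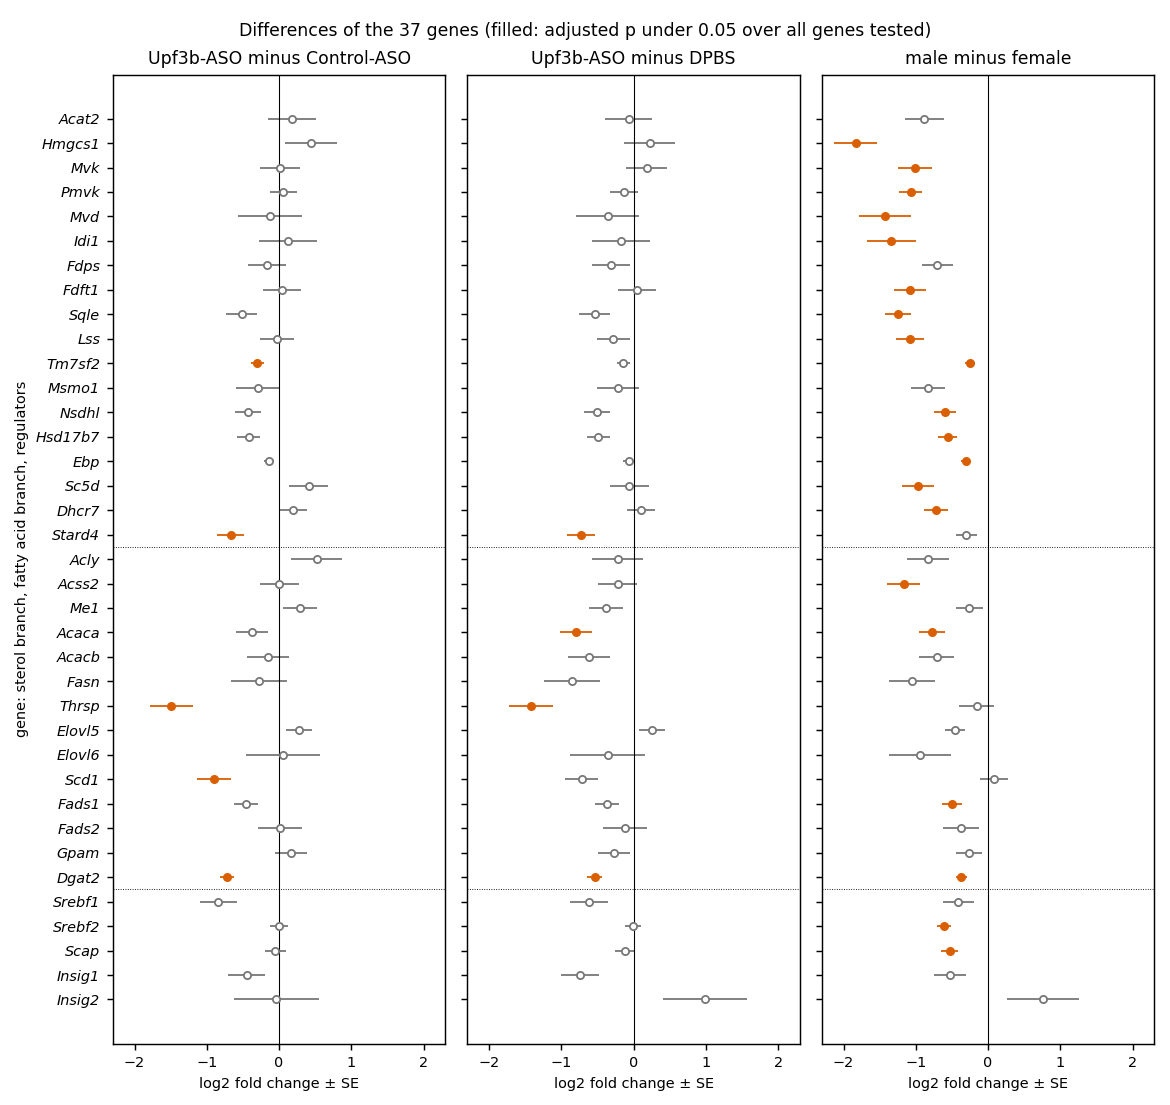
Log2 fold change with its SE for each of the 37 genes in 3 comparisons, with filled orange points for an edgeR adjusted p under 0.05 over all 8846 genes tested and open grey points for the rest; dotted lines part the sterol branch, the fatty acid branch and the regulators. Nearly all points of the right panel lie left of 0, down to -1.83 for Hmgcs1, while the sterol points of the left panel lie on both sides of 0 and Thrsp is the lowest there at -1.49.

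Of the 15 transcripts of these genes called between the sexes, from 11 genes, all were lower in males, where 1.8% of all transcripts tested were called. They included Hmgcs1-201 (-1.82), Sqle-201 (-1.29), Pmvk-201 (-1.24) and 4 transcripts of Lss (-1.0 to -1.24 on the log2 scale).

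The summed CPM of a branch gives the counts its genes held together, not scaled by transcript length, with no test. In the fatty acid branch the ratio of the female to the male mean was 1.18 by CPM, 1.29 by CPM without TMM scaling and 1.45 by TPM. TPM is scaled by length but not by TMM, and the joined share of TPM differed between livers. Over all genes tested, the median log2 difference, male minus female, was -0.289 with limma on log2(TPM + 1). The parts of length and of scaling in the higher TPM ratio were not tested. The sterol branch summed to 5265, 4633, 2136 and 2926 CPM after DPBS, to 5830, 4022, 1375 and 2600 CPM in Control-ASO and to 4731, 3322, 2405 and 2593 CPM in Upf3b-ASO. The females held 3322 to 5830 CPM and the males 1375 to 2926 CPM, a ratio of means of 1.98. The fatty acid branch summed to 17703, 17357, 13031 and 23456 CPM after DPBS, to 22928, 18235, 17607 and 12889 CPM in Control-ASO and to 14751, 12105, 11443 and 9049 CPM in Upf3b-ASO. Scd1 took 42.0 to 77.0% of this sum, and without it the means were 8418 ± 2302, 7282 ± 3013 and 6126 ± 1910 CPM (SD, n = 4) in DPBS, Control-ASO and Upf3b-ASO. The treated mean of the whole fatty acid branch was 33.9% under that of Control-ASO and 33.8% under that of DPBS, against 5.61% and 12.8% for the sterol branch. The sign of the sterol value against Control-ASO turned with the setting, with a log2 ratio of -0.08, of -0.35 without Control-ASO replicate 3, of 0.29 without Control-ASO replicate 1 and of 0.04 without TMM scaling.

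**Figure D5:**
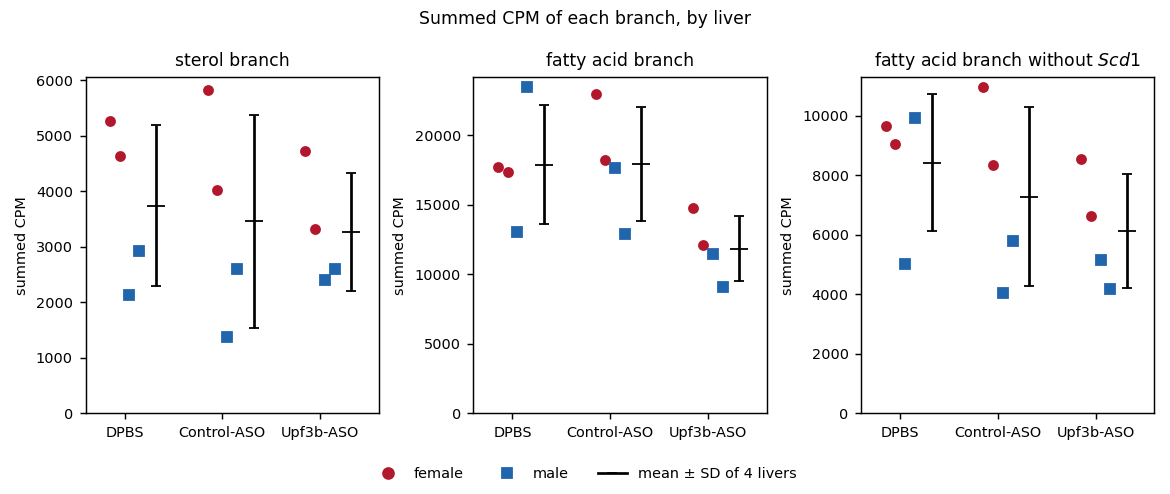
Summed CPM of the sterol branch, of the fatty acid branch, and of the fatty acid branch without Scd1, by liver, with females as red circles, males as blue squares, and mean and SD of 4 livers in black. In the sterol panel the 6 females (3322 to 5830 CPM) lie above the 6 males (1375 to 2926 CPM), and in the fatty acid panel the Upf3b-ASO mean is the lowest of the 3.

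Genes around the pathway were read from lists, with calls by edgeR, where 10.3% of all genes were called against Control-ASO and 8.93% against DPBS. The counts of the first 4 lists, at 1 to 3 genes each, are read against these shares and are not set apart from them. Of 9 tested genes of SREBP processing and turnover, 1 was called in each comparison, Rnf145, a ubiquitin ligase of the endoplasmic reticulum, lower by 0.76 ± 0.12 against Control-ASO and 0.51 ± 0.12 against DPBS on the log2 scale (adjusted p = 0.0037 and 0.027, edgeR). Its levels were 36.6, 35.1, 22.7 and 24.2 CPM after DPBS, 46.0, 38.1, 33.3 and 23.4 CPM in Control-ASO and 21.2, 25.7, 17.6 and 17.9 CPM in Upf3b-ASO. Treated females overlapped control males, and Rnf145 was lower in males too (-0.53 ± 0.10, adjusted p = 0.0068, edgeR). Of the 5 genes of the list of LXR and ChREBP factors, edgeR called Rxra alone, the partner receptor of LXR, in both comparisons, at 374 to 387 CPM in Upf3b-ASO against 456 to 603 CPM in the 8 controls (log2 fold change -0.39 ± 0.10 against Control-ASO, SE, adjusted p = 0.027, edgeR). DESeq2 also called Mlxipl against DPBS (-0.45, adjusted p = 0.017).

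Of 13 genes of sterol efflux and bile acid synthesis, Cyp27a1, the mitochondrial sterol 27-hydroxylase, was at 533, 512, 550 and 569 CPM after DPBS, at 525, 543, 598 and 536 CPM in Control-ASO and at 346, 346, 387 and 337 CPM in Upf3b-ASO. It fell by 0.64 ± 0.08 (SE, adjusted p = 0.00082, edgeR) and 0.61 ± 0.08 (adjusted p = 0.00093, edgeR) on the log2 scale against Control-ASO and DPBS, and was the one gene of this list that edgeR called against Control-ASO. DESeq2 called 4, with Abcg1, Cyp7b1 and Soat2 added (adjusted p = 0.031, 0.02 and 0.031). Against DPBS, Abcg1, a sterol exporter, and Npc2, a lysosomal sterol carrier, were also called, higher by 0.50 ± 0.13 and 0.32 ± 0.07 on the log2 scale. Of 22 tested genes of other lipogenic steps, 3 were called against Control-ASO, Lpin1 (-1.23 ± 0.24) and Lpin2 (-1.02 ± 0.27, or -0.68 without Control-ASO replicate 3), phosphatidate phosphatases, lower and Acsl5 (0.58 ± 0.13), an acyl-CoA synthetase, higher. Against DPBS the 2 called were Aacs (-1.29 ± 0.25), the acetoacetyl-CoA synthetase, and Acsl1 (-0.42 ± 0.11).

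Genes of feeding state and of the circadian clock were also called in the treated group. Of 7 tested fasting genes, Pck1, the gluconeogenic enzyme, was at 2011 to 2722 CPM in Upf3b-ASO against 3189 to 3887 CPM in the controls (log2 fold change -0.66 ± 0.10 against Control-ASO, SE, adjusted p = 0.0034, edgeR), and Cpt1a was called lower against Control-ASO (-0.38 ± 0.09). Of 9 tested clock genes, 6 were called against Control-ASO and 5 against DPBS, with Clock higher in all treated livers (75.2 to 94.7 CPM) than in all controls (40.2 to 74.7 CPM) and Ciart lower (2.80 to 3.71 against 6.52 to 38.4 CPM). Per1, Per2, Dbp and Nr1d2 were lower, with log2 fold changes from -0.73 (Nr1d2) to -2.28 (Per1, or -1.24 without Control-ASO replicate 3) against Control-ASO, and Per1 was not called against DPBS. The part of clock phase or feeding state in the lower Thrsp and Scd1 of the same livers was not tested.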

How the data were processed

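Liver RNA of 12 mice was sequenced. Per the labels, bcl2fastq 2.17.1.14 and Salmon 0.7.2 were used with GRCm38.p4, and the authors deposited an estimated count and a TPM value (scaled by length and depth) for each of 92468 transcripts in each liver. Here 98.1% of transcripts, with 97.51 to 99.26% of the estimated counts, were joined to GENCODE genes by Ensembl ID. The joined share of TPM was lower and less even, at 79.7 to 95.9% in a liver. The TPM filter, the TPM values and the limma fits rest on this share, with TPM rescaled only where stated. Counts were summed per gene and rounded, and genes at 5 TPM or more in at least 4 livers were tested (8846 of 31114).

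The test was edgeR 4.0.16 (quasi-likelihood, TMM scaling) fitted to all 12 livers with terms for group and sex, and Benjamini-Hochberg adjustment over all genes tested. A call is an adjusted p under 0.05, and CPM are TMM-scaled. Transcripts at 1 TPM or more in 4 livers were tested likewise. DESeq2 1.42.0 and limma 3.58.1 (R 4.3.3) served alternatives, and the edgeR step was tested on simulated data. Nothing in the labels says how animals were housed or whether same-numbered animals were paired. The p-values set a difference between groups or sexes against the estimated spread between these animals. A label names weekly dosing where the protocol gives dosing every 5 days.

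The members and lists were chosen with earlier results of these data known. Values in every liver are given for the genes called against either control, for the 5 regulators and for Hmgcs1, Sqle, Fdft1, Acaca, Fasn and Scd1. From each further list, called genes are named, at most the 5 with the largest difference in each comparison (6 clock genes over both). Alternatives added after seeing the data were rescaled TPM, sample weights and the study's cutoffs for the sexes, and, against DPBS, leaving out Control-ASO replicate 3.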

Additional observations from a re-analysis of the deposited data

Results flagged for a closer look

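In a group of 4 livers, a value was singled out where its gap to the nearest other liver exceeded the 95% limit of Dixon's test. Over 41 measures and 123 groups this singled out 4, where 1 in 20 would be about 6.2. That figure takes the 4 livers of a group as drawn from a single spread. Each group held both sexes, and most sterol genes differed between them, so the count of 4 is not read against it. Among the treated livers, replicate 1 held 171 CPM of Hsd17b7 and the rest 106 to 112 CPM. Among the Control-ASO livers, replicate 3 held 544 CPM of Insig2 and the rest 66.4 to 75.0 CPM. Among the DPBS livers, replicate 3 held 327 CPM of Elovl5 and the rest 613 to 663 CPM, and replicate 4 held 13524 CPM of Scd1 and the rest 8023 to 8293 CPM.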

How the results depend on the processing

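Against Control-ASO, 5 of the 37 genes were called. The count was 7 by DESeq2, 3 with filterByExpr, with no TPM filter and with no sex covariate, 2 with limma on log2(TPM + 0.1), on log2(TPM + 1) or on rescaled TPM, 2 with only the 2 groups compared, 2 with the replicate block, 15 with sample quality weights, 1 at the study's cutoffs and 0 with a median p per treated liver. Over all 8846 genes tested, 910 were called against Control-ASO. Weights called 2867 and DESeq2 1584. The replicate block called 699, no sex covariate 519 and only the 2 groups compared 363. The study's cutoffs called 212 and a median p 63. The limma fits called 334, 347 and 613, filterByExpr 889 of 14254 and no TPM filter 848 of 23425. Against DPBS, 4 were called. The count was 7 by DESeq2, 2 in each of the 3 limma fits, 1 with no sex covariate and 1 at the study's cutoffs. It was 10 with only the 2 groups compared and 13 with weights. With a median p it was 1, which was Insig2, higher, and none of the 4 genes called lower was kept. Insig2 was also the 1 gene higher among the 10, among the 13 and among the 15 with weights against Control-ASO. Over all 8846 genes tested against DPBS, 790 were called, 2478 with only the 2 groups compared and 2948 with weights. DESeq2 called 1274, the limma fits 313, 325 and 388, no sex covariate 477, the study's cutoffs 183 and a median p 140. Between the sexes, 20 were called, 31 with limma at 0.1, 32 at 1, 31 on rescaled TPM (where the median of all genes was -0.307, -0.289 and -0.248) 27 by DESeq2 and with weights, and 10 at the study's cutoffs. The cause of these changes was not tested.

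Without 1 liver at a time, the counts ran from 2 to 10 against Control-ASO (2 without Control-ASO replicate 1, 10 without replicate 3), from 2 to 11 against DPBS and from 12 to 25 between the sexes. Over all 8846 genes tested, calls in the same fits ran from 434 to 2168, from 400 to 2540 and from 581 to 1939. Called transcripts ran from 2 to 5, and the sterol log2 ratio against Control-ASO from -0.35 to 0.29. Control-ASO against DPBS stayed at 0 in each. Same-numbered livers correlated at 0.198 to 0.611 (mean 0.49), and livers of the same sex with another number at 0.48 on average. With sex removed this was -0.443 to 0.215, so the numbers were not taken as pairs, and the replicate block gave 2 calls against Control-ASO and 3 against DPBS.

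Signs changed only in genes that were not called. Against Control-ASO, Fdft1 was -0.15 with a median p, -0.08 with no sex covariate, -0.16 with weights and -0.18 to 0.21 without 1 liver, Hmgcs1 was -0.03 with a median p, and Scap was -0.17 to 0.10 without 1 liver. Insig2 was 0.54 in both limma fits, 0.63 on rescaled TPM, 0.01 with no TPM filter, 0.13 with only the 2 groups compared, 0.30 with the replicate block, 1.11 with weights (called), 0.03 with a length offset and -0.36 to 1.18 without 1 liver. Against DPBS, Fdft1 was -0.07 with a median p and -0.06 with weights, and -0.05 to 0.22 without 1 liver, Hmgcs1 -0.18 with a median p and -0.04 with no sex covariate, and Srebf2 0.06 on rescaled TPM and -0.09 to 0.08 without 1 liver. Scd1 between the sexes was -0.28 in both limma fits, -0.23 on rescaled TPM and -0.01 with weights and -0.06 to 0.20 without 1 liver. Total estimated counts were lowest in the treated livers, and the part of this in the calls was not tested. With 4 livers a group, small differences in variable genes such as Fasn, at 10248 to 70287 estimated counts in a liver, could not be resolved.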
